A study of Homo sapiens with 4 samples.

Results

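The glycosyltransferases that build the sugar chains of glycoproteins and glycolipids were described in A375 cells, an established human melanoma line, after exposure to octanoate. Members were taken by symbol: every gene of the B3GALT, B4GALT, B3GNT, B4GALNT, ST3GAL, ST6GAL, ST6GALNAC, ST8SIA, FUT, GALNT, GCNT and MGAT series, and A4GALT. This gave 92 names, from which 5 pseudogene or antisense names were removed. Of the 87 remaining genes, 68 averaged 10 or more normalised counts across the 4 libraries and were tested, among 20250 tested genes in a table of 56832. The rule used no difference between the groups, but the members were chosen with earlier results of these data known.

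These enzymes work in the endoplasmic reticulum and Golgi, each moving 1 sugar from a nucleotide donor to a defined position of a growing chain. GALNT enzymes start mucin-type O-glycans on serine or threonine, GCNT and MGAT enzymes make branches, and B3GNT and galactosyltransferases lengthen them. Sialyltransferases and fucosyltransferases cap the ends, and some members act on lipid, which gives gangliosides, globosides and lacto-series glycolipids. Cell-surface glycans carry the ligands of lectins such as galectins and selectins, and gangliosides are known surface antigens of melanoma.

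Both groups were wild-type A375 cells in serum-supplemented DMEM, without any further allele. Octanoate, a fatty acid of medium chain length, was given to one group at 1 mM, and the other received its solvent isopropanol, each for 48 h with 2 libraries. The labels do not say whether the 2 libraries of a group came from separate cultures, so p-values measure the spread between these libraries, which may be technical. Because a bulk library pools all cells, fewer cells of a type and less RNA per cell cannot be told apart.

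The libraries held 67785956 to 78005035 reads recovered from the deposited values. Replicates differed by more than sampling noise, with chi-square per degree of freedom of 5.32 for the vehicle pair and 7.37 for the octanoate pair, against 63.2 between vehicle 1 and octanoate 1. Of 9 melanocyte-lineage markers 8 had a mean of at least 10, and the list summed to 45098 to 49342 in vehicle and 38599 to 43674 in octanoate. SOX10 carried most of it, while TYR was near 0 (1.93 to 3.93 normalised counts) and MITF (log2 difference -0.48) and S100B (-1.12) fell. PMEL (0.55) rose. SOX10 (-0.12), DCT (-0.83), MIA (-0.09), MLANA (0.13) and TYRP1 (0.87) were not called. The 4 dedifferentiation markers summed to 33846 to 36041 in vehicle and 38801 to 39465 in octanoate. Markers of other cell types also moved. The 4 epithelial markers, KRT1 among them at 0, summed to 979 to 1153 in vehicle and 250 to 300.3 in octanoate. Nearly all of that was KRT14, with 1110 and 942 in vehicle and 266 and 218 in octanoate, while EPCAM stayed at 29.1 to 31.8. The 3 endothelial markers summed to 201 to 207 in vehicle and 338 to 347 in octanoate. Of these PECAM1 (log2 difference 0.95) and VWF (0.50) rose, and CDH5 (-0.31) was not called. The 5 leukocyte markers summed to 600 to 670.4 in vehicle and 725 to 777 in octanoate, nearly all of it LYZ, with PTPRC at most 10.8. The 4 fibroblast markers summed to 1832 to 1870 and 1550 to 1639. The part of these shifts in the results below was not tested.

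The start-site regions of 5 members are shown because they had the 3 largest rises and 2 largest falls among called members with a mean of at least 100 and a RefSeq promoter entry used here. Each is the 250 bases before the RefSeq start on GRCh38.p14, read 5′ to 3′ on the strand of the gene. The windows are chr19:48755359-48755608 (minus strand) for FUT1, chr6:96015724-96015973 (plus) for FUT9, chr22:42720871-42721120 (minus) for A4GALT, chr1:193186614-193186863 (minus) for B3GALT2 and chr2:231395460-231395709 (plus) for B3GNT7. Capitals mark matches to the searched motifs on either strand.
FUT1: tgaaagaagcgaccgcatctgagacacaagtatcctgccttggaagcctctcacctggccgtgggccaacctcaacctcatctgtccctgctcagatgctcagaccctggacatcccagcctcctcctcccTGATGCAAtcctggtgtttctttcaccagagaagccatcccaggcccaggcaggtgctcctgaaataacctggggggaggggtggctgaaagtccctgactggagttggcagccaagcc
FUT9: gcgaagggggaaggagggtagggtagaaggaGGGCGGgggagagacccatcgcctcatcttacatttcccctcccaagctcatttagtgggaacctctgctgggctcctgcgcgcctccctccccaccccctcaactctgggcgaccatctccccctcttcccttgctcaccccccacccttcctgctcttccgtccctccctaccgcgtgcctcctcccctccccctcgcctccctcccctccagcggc
A4GALT: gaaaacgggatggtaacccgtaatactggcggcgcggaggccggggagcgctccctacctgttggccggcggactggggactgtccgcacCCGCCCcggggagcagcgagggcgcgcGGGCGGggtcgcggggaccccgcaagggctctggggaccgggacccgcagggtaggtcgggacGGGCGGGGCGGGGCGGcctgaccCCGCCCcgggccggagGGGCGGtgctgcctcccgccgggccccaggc
B3GALT2: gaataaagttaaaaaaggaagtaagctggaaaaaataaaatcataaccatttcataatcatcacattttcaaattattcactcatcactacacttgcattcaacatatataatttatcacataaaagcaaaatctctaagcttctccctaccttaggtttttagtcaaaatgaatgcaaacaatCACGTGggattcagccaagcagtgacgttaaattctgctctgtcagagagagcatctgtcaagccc
B3GNT7: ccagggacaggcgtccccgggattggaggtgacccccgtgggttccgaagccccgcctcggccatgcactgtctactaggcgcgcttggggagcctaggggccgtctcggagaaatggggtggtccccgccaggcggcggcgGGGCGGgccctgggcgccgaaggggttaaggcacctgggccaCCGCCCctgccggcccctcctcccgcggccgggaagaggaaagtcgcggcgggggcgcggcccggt

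The 6 motifs searched, on both strands, were AP-1 (TGANTCA), a C/EBP-ATF response element (TGATGNAA), NF-kappaB (by its name, an ambiguous consensus), the E-box (CACGTG), the GC box (GGGCGG) and the TATA box (TATAAA). A promoter entry was found for 49 of the 68 members. FUT1 held the only printed C/EBP-ATF match, starting 119 bases before the start, and B3GALT2 held an E-box at 66 bases. A4GALT held 7 GC boxes, of which those starting at 70, 65 and 60 bases overlap. Over all 27305 promoters of the table, 42.3% held a GC box, against 31 of the 49 members (63.3%). The E-box stood in 6.49% of all promoters and in 5 members, AP-1 in 6.60% and in 3, and C/EBP-ATF in 3.19% and in 2 (4.08%). NF-kappaB stood in 9.57% of all promoters and in 6 members, and the TATA box in 11.1% and in 0 members. A match is a description of the letters only.

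Octanoate moved members in both directions, with more called higher than lower. In limma's test with Benjamini-Hochberg adjustment over all 20250 genes, 33 of the 68 members (48.5%) passed an adjusted p of 0.05, where 29.9% of all tested genes did. Of these, 24 rose (35.3%, against 16.2% of all genes) and 9 fell (13.2%, against 13.7%). The median log2 difference of the 68 members was 0.16, and that of all genes 0.01. Most changes were small: the median size among called members was 0.39 on the log2 scale, and 3 members, B3GALT2, FUT1 and FUT9, passed 2-fold (4.21% of all genes passed both the test and 2-fold). The groups did not overlap in 49 members (72.1%, against 63.1% of all genes), with octanoate above in 33 (32.6% of all genes) and below in 16 (30.5%).

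**Figure D1:**
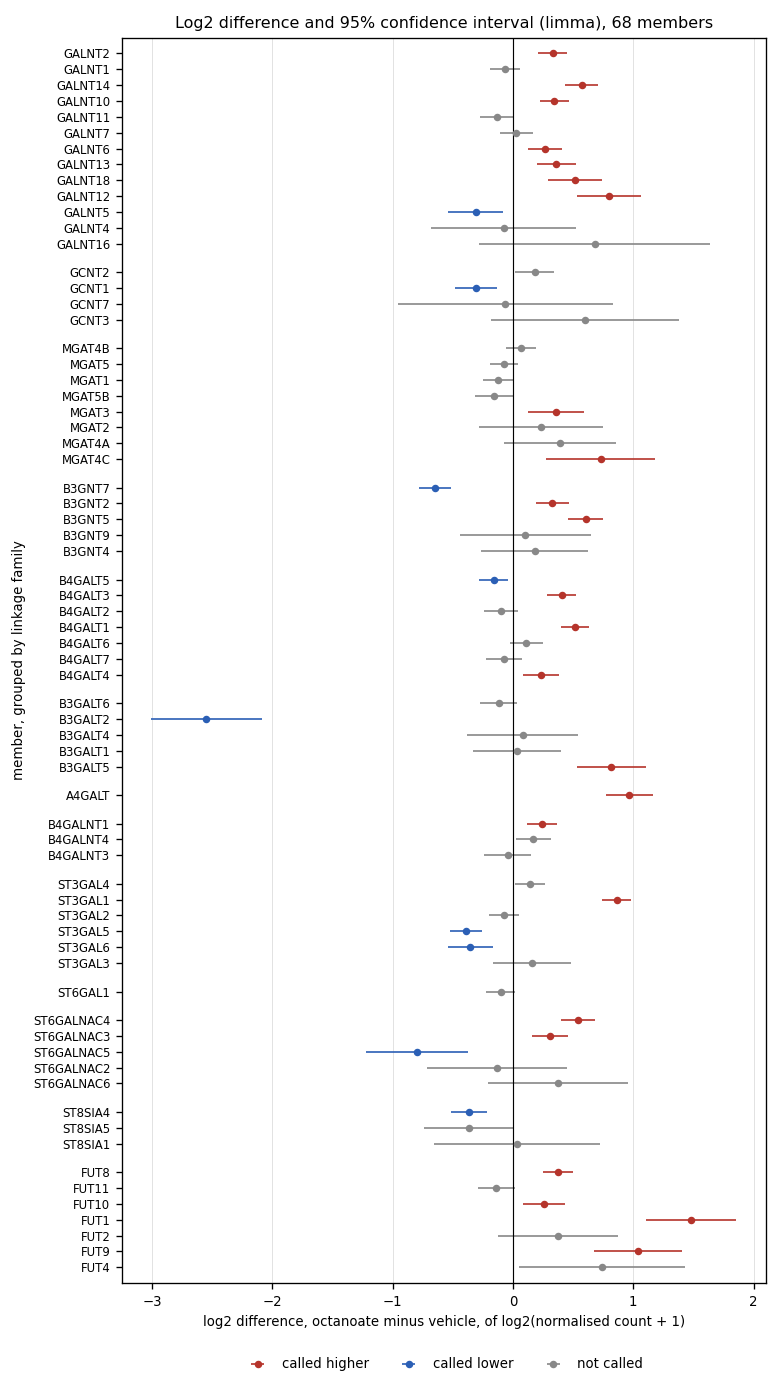
Log2 difference, octanoate minus vehicle, for the 68 members grouped by family, with limma's 95% confidence interval as bars. Colours give the 24 members called higher, the 9 called lower and the 35 not called; B3GALT2 at -2.55 and FUT1 at 1.48 are the ends of the range.

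The share called differed with abundance, among members as among all genes. Among members with a mean of 10 to 100 normalised counts, 2 of 16 were called (13.1% of all genes in that range). From 100 to 1000 it was 13 of 18 (38.6% of all genes), and from 1000 up 18 of 34 (38.1%). Over the 68 members, standard errors of these differences had a median of 0.08. The plot of difference against mean places the members among all tested genes.

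**Figure D2:**
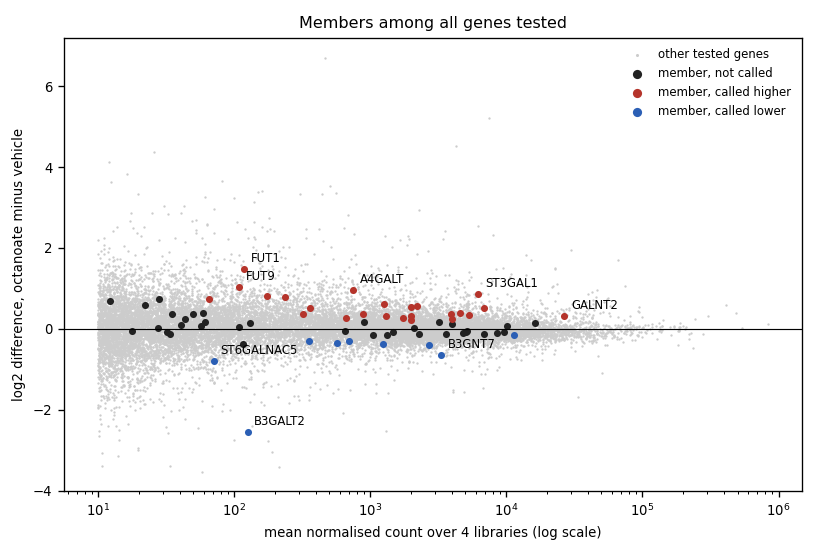
Log2 difference, octanoate minus vehicle, against mean normalised count (log axis) for all 20250 tested genes in grey, with the 68 members coloured by call. Of the members, B3GALT2 at -2.55 is lowest and FUT1 at 1.48 is highest, and most others lie near 0.

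Removing trends with GC content and transcript length left 42 members called, 25 higher and 17 lower, so that 59.5% of member calls were higher in place of 72.7%. That fit covers 74.8% of tested genes, under the 80% needed, so it is void as a check over all genes, although all 68 members are in it; 45.9% of its genes were called, 19.4% higher and 26.6% lower. Without vehicle 1 the members called lower numbered 4 in place of 9, where 7.53% of all genes were, and with a variance prior that ignores abundance 11 members were called (8.02% of all genes). On the recovered reads edgeR called 34 members (32% of its genes) and DESeq2 called 29 (27.5%).

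Of 13 tested GALNT members, which start O-glycans, 7 rose (53.8%, against 16.2% of all genes), 1, GALNT5, fell (7.69%, against 13.7%) and 5 were not called. GALNT2, chr1:230057990-230282124, is the most abundant of them per kilobase of exon, and it read 24548 and 22830 normalised counts in vehicle and 30137 and 29389 in octanoate. Both octanoate libraries lay above both vehicle libraries, a log2 difference of 0.33 (limma adjusted p 0.000112, SE 0.06). An antisense gene overlaps 23.1% of its exon bases on the opposite strand, and whether counting was strand-aware is not given in the sources used here.

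GALNT12 at chr9:98807699-98850081 and GALNT14 at chr2:30910467-31155202 had the largest rises among the called members of the family. GALNT12 read 192 and 157 in vehicle and 317 and 289 in octanoate, a log2 difference of 0.80 (limma adjusted p 4.13e-05, SE 0.13). GALNT14 read 1826 and 1703 in vehicle and 2682 and 2566 in octanoate, a difference of 0.57 (limma adjusted p 3.47e-07, SE 0.07). In both genes the lower octanoate library exceeded the higher vehicle library. GALNT18, chr11:11270876-11622005, went from 312 and 288 to 457 and 401 (log2 difference 0.51, limma adjusted p 0.000741), again without overlap.

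The remaining called GALNT members moved less, with log2 differences of 0.36 for GALNT13, 0.34 for GALNT10, 0.27 for GALNT6 and -0.31 for GALNT5. The GALNT5 call was lost without vehicle 1, without vehicle 2 or without octanoate 2. GALNT1, GALNT4, GALNT7, GALNT11 and GALNT16 were not called. GALNT4 shares 93.2% of its exon bases with the read-through gene POC1B-GALNT4 on the same strand, so its counts are uncertain. GALNT16 lay just above the mean of 10, with 10.8 and 7.75 in vehicle and 13.5 and 17.3 in octanoate, and GCNT4 just below it, with 5.89 and 10.7 in vehicle and 10.6 and 3.25 in octanoate.

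Of 4 tested GCNT branching enzymes 1 was called (25%, near the 29.9% of all genes). GCNT1, the core 2 branching enzyme of O-glycans, fell from 788 and 769 to 640.1 and 617 (log2 difference -0.31, SE 0.09, limma adjusted p 0.00661), and this call was lost without vehicle 1. GCNT2, chr6:10492223-10629368, makes the I branches of polylactosamine and had the highest mean level per kilobase of its family over the 4 libraries. By group GCNT1 led in both vehicle libraries, with 50.5% and 50.7% of the family against 43.5% and 45.3% for GCNT2, and GCNT2 led in octanoate with 52.4% and 51.8%. GCNT2 read 841 and 851 in vehicle and 955 and 963 in octanoate. Its libraries did not overlap, but its difference of 0.18 did not pass the test (limma adjusted p 0.0826). It was called higher with GC and length trends removed. In limma's fit without that step 0 GCNT members were called higher, 1 with an unadjusted p under 0.05, and edgeR and DESeq2 each called 1 member of the family.

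The MGAT enzymes place the GlcNAc branches of N-glycans. Of 8 tested, 2 were called by limma, both higher (25%, near the 29.9% of all genes called in either direction). DESeq2 called 0 and edgeR 2. MGAT1 and MGAT5B, which were not called here, were called lower with GC and length trends removed, and MGAT1 also with equal column totals. MGAT3 adds the bisecting GlcNAc and read 294 and 268 in vehicle and 390 and 334 in octanoate, a difference of 0.36. MGAT4C at chr12:85955666-86838904 was far less abundant. It read 41.2 and 57.2 in vehicle and 78.9 and 83.4 in octanoate, a log2 difference of 0.73 (limma adjusted p 0.0137, SE 0.22). Both groups of each gene were separate, but the MGAT3 call was lost without vehicle 2 or octanoate 1 and the MGAT4C call without vehicle 1 or octanoate 2. MGAT4C also shares sequence with 7 other genes.

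The abundant N-glycan branching enzymes did not pass the test. MGAT4B, chr5:179797597-179806952, had the highest level per kilobase of the family, and it read 10441 and 9469 in vehicle and 10793 and 10018 in octanoate. Its libraries overlapped. MGAT5, which makes the β1,6 branch of N-glycans, read 10049 and 9691 in vehicle and 9177 and 9529 in octanoate, a difference of -0.08 (limma adjusted p 0.328). MGAT1, the first branching enzyme, differed by -0.13. MGAT2 values are uncertain because a gene on the opposite strand overlaps 91.9% of its exon bases.

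Chain-extending enzymes of the B3GNT family moved in opposite directions. B3GNT7, chr2:231395543-231401164, takes part in extending keratan sulfate chains and fell. It read 4257 and 3861 in vehicle and 2598 and 2572 in octanoate. The groups were well apart, 1.57-fold lower in octanoate, a log2 difference of -0.65 (limma adjusted p 2.46e-08, SE 0.06).

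B3GNT5, chr3:183253244-183298504, starts lacto-series glycolipids and rose from 987 and 1018 to 1504 and 1543. That is a log2 difference of 0.60 (limma adjusted p 5.64e-07, SE 0.07), with no overlap. A gene on the opposite strand, MCF2L2, overlaps 21.8% of its exon bases. B3GNT2, the main polylactosamine synthase, read 1783 and 1772 in vehicle and 2279 and 2183 in octanoate and rose by 0.33.

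The share of the B3GNT family held by each member, from levels per kilobase of exon, shifted accordingly. B3GNT7 held 57.3% and 54.9% with vehicle and 38.1% and 38.4% with octanoate. B3GNT2 went from 31.1% and 32.6% to 43.3% and 42.2%, and became the largest of the family. B3GNT5 went from 10.3% and 11.2% to 17.1% and 17.9%.

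**Figure D3:**
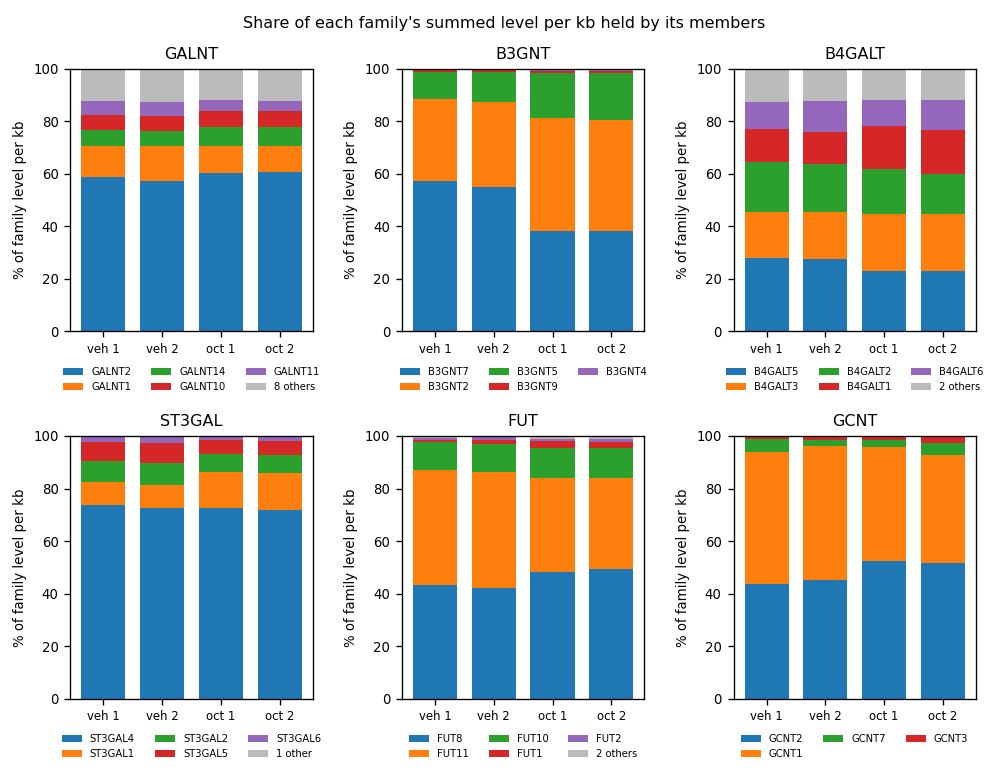
Share of the summed level per kilobase of exon held by the members of selected families in each library (vertical axis, percent). In the B3GNT panel B3GNT7 goes from 57.3% and 54.9% in vehicle to 38.1% and 38.4% in octanoate.

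Of 7 tested B4GALT galactosyltransferases, 3 rose (42.9%, against 16.2% of all genes), 1 fell (14.3%, against 13.7%) and 3 were not called. B4GALT1, chr9:33104082-33167356, the main lactosamine synthase, read 5796 and 5472 in vehicle and 8034 and 8067 in octanoate. Both octanoate libraries were higher, a log2 difference of 0.52 (limma adjusted p 1.93e-07, SE 0.06). B4GALT3 rose by 0.40 and B4GALT4 by 0.23, the last a call lost without vehicle 2 or octanoate 2. B4GALT3 shares 546 bases with PPOX, so its counts are uncertain.

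B4GALT5, chr20:49632945-49713878, makes lactosylceramide, the common precursor of most glycosphingolipids, and is the most abundant member of the family per kilobase. It read 12375 and 11703 in vehicle and 10909.5 and 10611 in octanoate. The groups did not overlap, yet the difference was small at -0.16 (limma adjusted p 0.0337), and the call was lost without vehicle 1, octanoate 1 or octanoate 2 and under TMM scaling. B4GALT2, B4GALT6 and B4GALT7 were not called.

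The B3GALT family held the largest fall of all members. B3GALT2, chr1:193179045-193186654, adds β1,3-linked galactose to GlcNAc, as in type 1 chains. It read 217 and 211 in vehicle and 49.1 and 26.0 in octanoate, from 221 and 218 against 51 and 24 reads. Both octanoate libraries were far under the vehicle libraries, 5.70-fold lower, with a log2 difference of -2.55 (limma adjusted p 3.37e-09, SE 0.22). It shares 164 bases with CDC73, so some of its reads are uncertain in origin.

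B3GALT5 at chr21:39556442-39673137, another type 1 chain enzyme, moved the other way. It read 132 and 121 in vehicle and 218 and 229 in octanoate, a log2 difference of 0.82 (limma adjusted p 6.66e-05, SE 0.14), with no overlap. B3GALT6, chr1:1232226-1235041, which works in the linker of glycosaminoglycans, had the highest level per kilobase of the family. It read 4014 and 3487 in vehicle and 3715 and 3195 in octanoate, and its groups overlapped.

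Enzymes that choose the fate of lactosylceramide and of gangliosides also differed. A4GALT, chr22:42692112-42721298, the globotriaosylceramide synthase, read 562 and 453 in vehicle and 987 and 987 in octanoate. The rise of 1.94-fold was free of overlap, a log2 difference of 0.97 (limma adjusted p 2.43e-08, SE 0.09). ST3GAL5, the GM3 synthase that uses the same precursor, fell from 3144 and 3010.2 to 2399 and 2295 (log2 difference -0.39, limma adjusted p 3.84e-05).

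B4GALNT1, chr12:57623410-57633355, which makes GM2 and GD2, rose modestly. It read 3723 and 3644 in vehicle and 4470.1 and 4243 in octanoate, a log2 difference of 0.24 (limma adjusted p 0.00334, SE 0.06). The groups did not overlap, but the call was lost without octanoate 1. ST8SIA1, the GD3 synthase, was low in every library, with 29.4 and 24.2 in vehicle and 20.2 and 36.8 in octanoate, and its groups overlapped.

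Among the α2,3-sialyltransferases, ST3GAL1 had the smallest p of all members. It lies at chr8:133454848-133571940 and caps core 1 O-glycans with sialic acid. It read 4552 and 4280.3 in vehicle and 8026 and 8040.2 in octanoate. The rise was 1.82-fold with no overlap, a log2 difference of 0.86 (limma adjusted p 3.55e-11, SE 0.06). It shares 202 bases with its pseudogene ST3GAL1P1.

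ST3GAL4, chr11:126355640-126440344, had the highest level per kilobase of the family. It read 16213 and 14478 in vehicle and 17429.8 and 16375 in octanoate. These groups were separate by a narrow margin, and the difference of 0.14 did not pass (limma adjusted p 0.0885), though it was called with equal column totals and without vehicle 1. ST3GAL3 and ST3GAL2 were not called, and 39.2% of the exon bases of ST3GAL3 lie in another gene of the same strand. ST3GAL6 fell by 0.35, a call lost without vehicle 1. ST3GAL1 held 8.42% and 8.72% of the family's level per kilobase in vehicle and 13.6% and 14.3% in octanoate.

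The α2,6-sialyltransferases of GalNAc divided. ST6GALNAC4, chr9:127907886-127917038, which makes disialyl core 1, had the highest level per kilobase of this family. It read 1661 and 1566 in vehicle and 2436 and 2261 in octanoate, a log2 difference of 0.54 (limma adjusted p 1.24e-06, SE 0.07), with no overlap. ST6GALNAC3 rose by 0.31, a call lost without vehicle 1.

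ST6GALNAC5 at chr1:76867441-77065711, which acts on gangliosides, fell. It read 100.1 and 81.4 in vehicle and 49.1 and 54.2 in octanoate. Groups were separate, with a log2 difference of -0.80 (limma adjusted p 0.00476, SE 0.21), but without vehicle 1 the call was lost. ST6GALNAC2 and ST6GALNAC6 overlap other genes in 49.6% and 85.4% of their exon bases and are uncertain.

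ST6GAL1, chr3:186930485-187078553, the α2,6-sialyltransferase of N-glycans, did not pass. It read 9150.0 and 8588 in vehicle and 8319 and 8184 in octanoate, with no overlap and a difference of -0.10 (limma adjusted p 0.185). It was called lower with GC and length trends removed, and not by edgeR or DESeq2. ST8SIA4, chr5:100806935-100903266, a polysialic acid synthase, fell from 1404 and 1408 to 1106 and 1074, a log2 difference of -0.37 (limma adjusted p 0.000368, SE 0.07), with no overlap.

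The 2 largest rises among the members were those of fucosyltransferases. Of 7 tested, 4 were called by limma, all higher (57.1%, against 16.2% of all genes), while edgeR called 4 and DESeq2 3. FUT11 (log2 difference -0.14, groups apart) had an unadjusted p not under 0.05, and was called lower with GC and length trends removed. FUT1, chr19:48748011-48755390, adds the α1,2-fucose of the H antigen. It read 53.0 and 72.7 in vehicle and 191 and 160.4 in octanoate, from 54 and 75 against 198 and 148 reads. The lower octanoate library stood far above the higher vehicle library, 2.79-fold by the means, with a log2 difference of 1.48 (limma adjusted p 8.94e-07, SE 0.18).

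FUT9 at chr6:96015984-96215612, which makes Lewis x, read 70.7 and 69.8 in vehicle and 128 and 166 in octanoate. It rose 2.09-fold without overlap, a log2 difference of 1.04 (limma adjusted p 7.08e-05, SE 0.18). The vehicle libraries nearly coincided and the octanoate libraries lay apart from each other.

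FUT8, chr14:65410592-65744121, adds core fucose to N-glycans and had the highest mean per kilobase over the 4 libraries, with FUT11 slightly above it in both vehicle libraries. It read 3539 and 3277 in vehicle and 4444 and 4377 in octanoate, a log2 difference of 0.37 (limma adjusted p 4.63e-05, SE 0.06), with no overlap. FUT10 rose by 0.26, a call lost when any 1 of the 4 libraries was left out. FUT2 and FUT4 were not called. Genes on the opposite strand overlap 15.1% of the exon bases of FUT8 and 26.3% of those of FUT11. The FUT8 share of the family per kilobase went from 43.2% and 42.1% to 48.1% and 49.4%, and that of FUT11 from 43.8% and 44.1% to 36.0% and 34.4%.

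**Figure D4:**
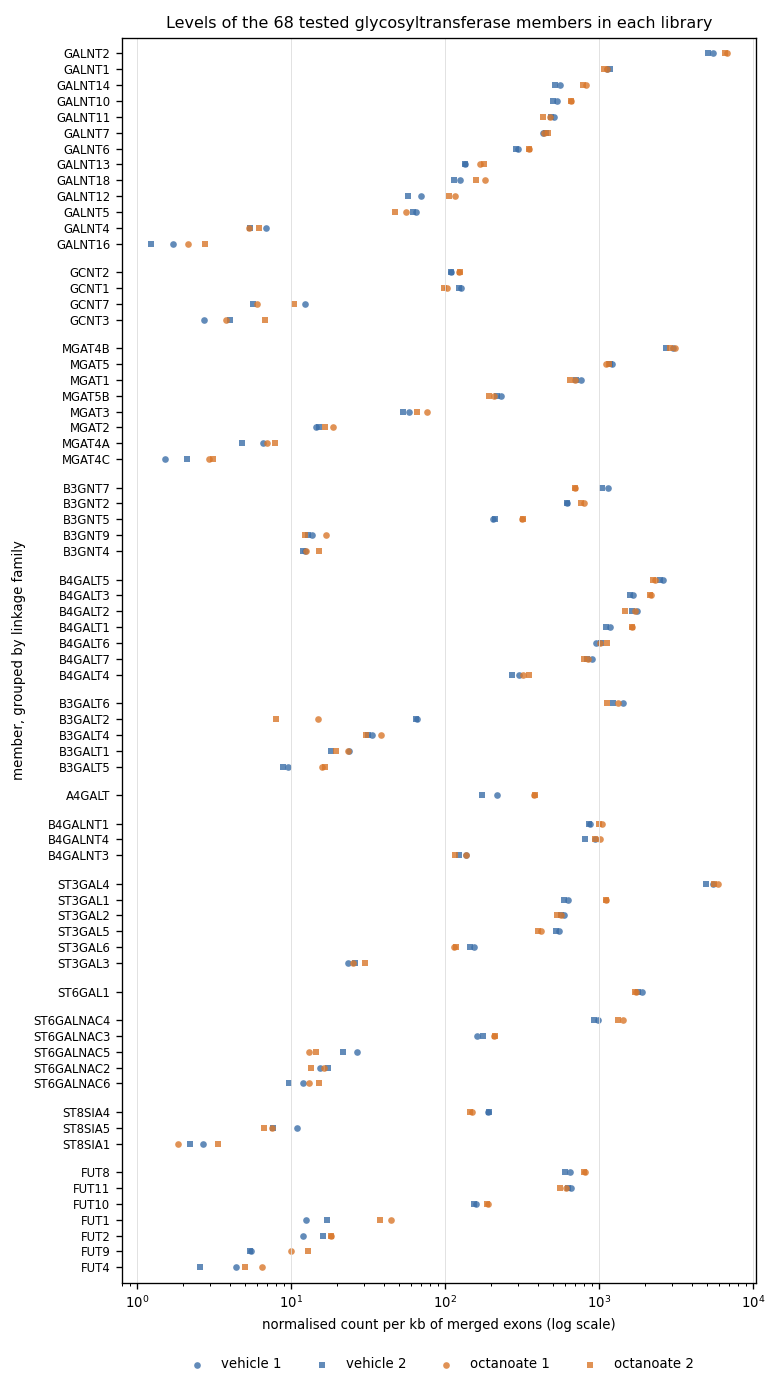
Normalised count per kilobase of exon of each of the 68 tested members in each of the 4 libraries (log axis), by family. Per kilobase, FUT1 goes from 12.4 and 17.1 in vehicle to 44.7 and 37.7 in octanoate. B3GALT2 goes from 66.3 and 64.5 to 15.0 and 7.94.

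Summed per kilobase of exon, families differed in size and in movement. GALNT members came to 120.4% of the vehicle mean in octanoate and ST6GALNAC members to 139.7%. FUT stood at 113%, ST3GAL at 112% and B4GALT at 108%, MGAT at 100.1%, B3GNT at 93.5% and ST8SIA at 77.8%. These sums follow their most abundant members, and the comparison of sums was not tested.

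The other 19 members, which did not reach a mean of 10, were B3GNT3, B3GNT6, B3GNT8, B4GALNT2, FUT3, FUT5, FUT6, FUT7, GALNT3, GALNT8, GALNT9, GALNT15, GCNT4, MGAT4D, ST6GAL2, ST6GALNAC1, ST8SIA2, ST8SIA3 and ST8SIA6. FUT7, a selectin-ligand enzyme, had 1.94 normalised counts in vehicle 2, 1.08 in octanoate 2 and 0 in the other two libraries. FUT5 was at 0 in all 4 libraries. No member under a mean of 10 was tested.

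Of the 68 tested members, 29 shared at least 100 bases at 95% identity or more with another gene, and 0 with another member. No such sequence was found for FUT1, FUT9, A4GALT, B3GNT7, B3GALT5, GALNT14 or ST6GALNAC5.

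The genes around these enzymes were read from 8 lists, of which 86 genes were tested. There, 16 rose and 8 fell, 27.9% in all, close to the 29.9% of all genes. The 16 include ABO, which passed the filter of 10 only through octanoate. These counts describe the lists and were not tested.

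In the list of sugar donor synthesis 9 of 20 were called (45%, against 29.9% of all genes), 6 higher and 3 lower. GFPT2, an isoform of the first enzyme of the hexosamine pathway, read 5213 and 4900.4 in vehicle and 7980.5 and 8045 in octanoate, a log2 difference of 0.66 (limma adjusted p 3.38e-09, SE 0.06). GNE, the enzyme that commits UDP-GlcNAc to sialic acid synthesis, read 39574 and 36216 in vehicle and 25546 and 26484 in octanoate, a difference of -0.54 (limma adjusted p 1.71e-07, SE 0.06). In both, the groups did not overlap.

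Of 9 Golgi transporters of sugar nucleotides 5 were called (55.6%, against 29.9% of all genes), 1 higher and 4 lower. SLC35A2, which carries UDP-galactose, went from 3728 and 3520 to 2904 and 2924 (log2 difference -0.31, limma adjusted p 0.000359). SLC35A5 fell by 0.23. Among 8 enzymes of N-glycan trimming, MOGS and GANAB with the mannosidases, 2 were called (25%, near the 29.9% of all genes). MAN1A1 read 935 and 954 in vehicle and 1340 and 1287 in octanoate, a difference of 0.47, and MAN2A1 rose by 0.24.

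Sialidases and other exoglycosidases gave 0 calls in 11 with limma and 0 with DESeq2, while edgeR called 1, and 2 had an unadjusted p under 0.05 in limma. Both chaperones of the core 1 enzyme were uncalled by limma, edgeR and DESeq2, with 1 at an unadjusted p under 0.05. Among 13 Golgi scaffold genes 2 were called (15.4%, under the 29.9% of all genes), COG5 higher by 0.39 and COG6 by 0.17.

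Further glycosyltransferases numbered 16 tested, 3 higher, ABO among them, and 1 lower (25% called, near the 29.9% of all genes). OGT, which places single GlcNAc residues on nuclear and cytosolic proteins, rose by 0.40. ABO, the blood group transferase that uses the H antigen made by FUT1, had few counts, 4.91 and 7.75 in vehicle and 24.1 and 21.7 in octanoate. Its log2 difference was 1.73 (limma adjusted p 0.00598, SE 0.46). With means of 6.33 in vehicle and 22.9 in octanoate, it passed the filter of 10 only through octanoate. Its p-value is therefore not support for a rise. Of 7 tested galectins 2 were called (28.6%, near the 29.9% of all genes), LGALS7B higher by 1.27 and LGALS4 by 0.76. LGALS7B has a near-identical copy, LGALS7, so its counts are uncertain.

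**Figure D5:**
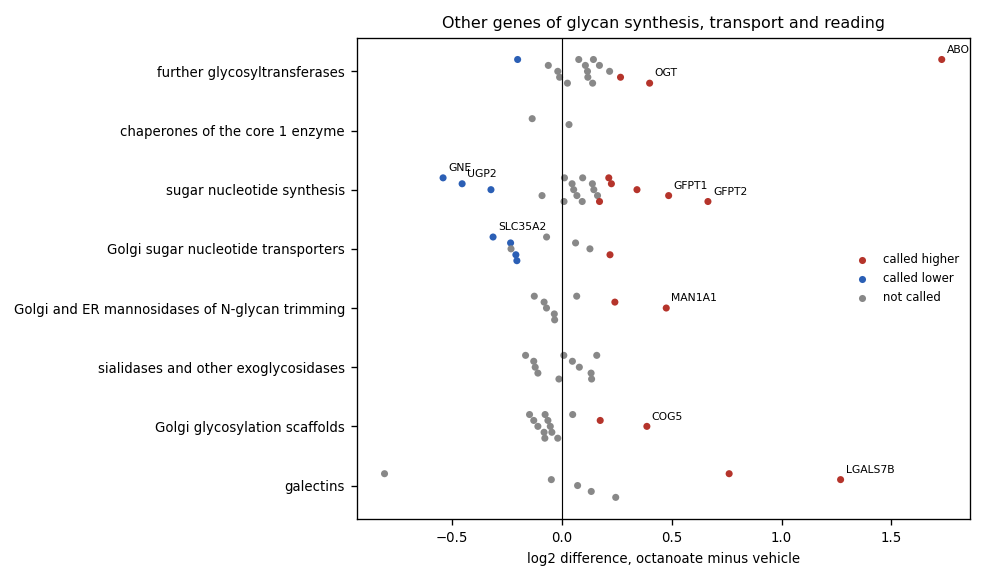
Log2 difference, octanoate minus vehicle, for the 86 tested genes of 8 lists of glycan synthesis, transport and reading, with 1 point per gene coloured by call. ABO at 1.73, which passed the filter of 10 only through octanoate, is farthest to the right. GNE at -0.54 is the lowest called gene.

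In the authors' deposited table, which compares the same groups, 28 of the 68 members had an adjusted p under 0.05, 21 higher and 7 lower, where 12.9% of its genes did, 6.89% higher and 6.01% lower. All 28 were also called by limma in the same direction. The other 5 limma calls were FUT10, GALNT5, MGAT3, MGAT4C and ST6GALNAC5.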

How the data were processed

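RNA of 4 A375 libraries (2 with isopropanol, 2 with 1 mM octanoate) was sequenced. Per the submitters' processing notes the tools named are bcl2fastq 2.17, Trim Galore, STAR 2.4, Picard, HTSeq 0.9.1 and DESeq2 with build hg38. The annotation and the use of strand are not given in the sources used here. The authors deposited 1 signal per gene and library, a count normalised by DESeq2 per the name of the table. A second deposited table holds the authors' mean signal, log2 fold change, test score and p-value for 33533 genes, with an adjusted p of 1 for genes left out of the adjustment.

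All positive values were whole multiples of 1 read within a tolerance of 0.01 (100%), and edgeR 4.0.16 on the recovered reads called 6480 of 20250 genes. DESeq2 1.42.0 called 4924 of 17894. The normalised counts were tested with limma 3.58.1 (R 4.3.3) on log2(value + 1), a scale that understates the change of low genes, with an intensity trend, for genes with a mean of at least 10. P-values were two-sided and adjusted by Benjamini-Hochberg over 20250 genes, and treatment was the only term. An exact permutation test of 2 against 2 cannot go below 0.333. Log2 differences are octanoate minus vehicle. Fold values are ratios of group means.

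The members and lists were chosen with earlier results of these data known. Named genes were called members with a log2 difference of at least 0.5 in size, the highest member per kilobase in each family, the members next to the mean of 10, and up to 2 called genes per list by smallest p. Other genes named were chosen after their values were seen. Gene positions and exon lengths are from GENCODE 29 on hg38 (all 87 members matched by symbol). Shared sequence was searched with blastn 2.17.0, and promoters are from RefSeq. Scripts were tested on simulated data. Reads carry no molecular identifiers, so counting statements cover counting error only.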

Additional observations from a re-analysis of the deposited data

How the results depend on the processing

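Over 16 alternatives no called member changed sign, and 11 of the 33 calls held in every one: FUT1, FUT9, A4GALT, ST3GAL1, B3GALT5, B3GNT5, GALNT14, ST6GALNAC4 and B4GALT1 higher, B3GALT2 and B3GNT7 lower. The other 22 were lost in at least 1, and 15 uncalled members were called in at least 1. Without a filter on low values, members called lower numbered 5, list genes 5 higher and 4 lower, and all genes 1597 higher and 998 lower. Without the intensity trend members numbered 11 (9 higher, 2 lower), list genes 5 and 3, and all genes 1095 and 530. With GC and length trends removed 17 members and 15 list genes were lower. The cause was not tested. Leaving out 1 library in turn gave 28 to 31 members called, 21 to 24 higher and 4 to 10 lower (4 without vehicle 1), a median of 0.16 to 0.21, list genes 8 to 13 higher and 4 to 9 lower, and all genes 2322 to 2770 higher and 1525 to 2274 lower. A group left with 1 library is assumed to vary like the other.

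With the replicate number as a block, 43 members were called (41.4% of all genes were), 28 higher and 15 lower, with list genes 26 and 13 and all genes 4307 and 4069. The block called GCNT2 and ST3GAL4 higher and MGAT1, MGAT5B, FUT11 and ST6GAL1 lower, which the same fit without the block did not. The labels do not say what the numbers mark, and with 2 pairs the differences of equal numbers correlated at 0.126 over all tested genes and 0.390 over those with a mean of at least 1000.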

Other observations

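Ratios between members that share an acceptor were read after their values were seen, with no test. The A4GALT count was 17.9% and 15.1% of the ST3GAL5 count in vehicle and 41.1% and 43.0% in octanoate, where both enzymes use lactosylceramide. The B3GNT5 count was 31.4% and 33.8% of the ST3GAL5 count in vehicle and 62.7% and 67.2% in octanoate. The ST3GAL1 count was 578% and 556% of the GCNT1 count in vehicle and 1254% and 1304% in octanoate, where both use core 1 O-glycans. In each of these ratios both octanoate libraries were above both vehicle libraries. This had to follow, because each first-named gene rose and each second-named gene fell without overlap, so it adds nothing to the single-gene values. The ratios are not scaled for transcript length, so only the change of a ratio between libraries can be read.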
